A study of Mus musculus with 6 samples.

Results

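Connexins, pacemaker channels and conduction-system genes were followed in infarcted mouse hearts given a blocker of the microRNA miR-433. The group has 8 genes, taken by name from the array annotation: the connexins Gja1, Gja5 and Gjc1, the pacemaker channels Hcn2, Hcn4 and Cacna1g, the transcription factor Tbx3 and the adhesion molecule Cntn2. They are 8 of 36095 gene names on the array and had 12 probes. Of the 8, 7 were tested, having a probe called well above background on 3 or more arrays of either group. Hcn4 had none.

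RNA came from hearts of male C57BL/6 mice, labelled as 8 weeks old, in which the left anterior descending coronary artery had been tied off 21 days earlier. An antagomir, a modified antisense oligonucleotide, against miR-433 (80 mg/kg) or its scrambled control had been injected into the tail vein on 3 consecutive days. There were 3 samples in each group, every heart was infarcted, and the study asked whether blocking miR-433 limits cardiac fibrosis. Separate animals per sample and the region of heart taken are not stated in the labels, so p-values measure the spread between these samples, which may be technical.

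The heartbeat starts in the sinoatrial node and reaches the ventricles through the atrioventricular node and the His-Purkinje fibres. HCN channels carry the pacemaker current, T-type calcium channels such as the one encoded by Cacna1g add to the slow depolarisation of nodal cells, and connexins form the gap junctions through which current passes between myocytes. Tbx3 is a repressor that keeps nodal cells from taking on a working-myocyte programme, and Cntn2 marks the conduction system of the mouse heart. Connexin 43, the product of Gja1, is the main connexin of working ventricular muscle and is known to be displaced from cell ends at the border of infarcts.

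The labels do not say which arm of the microRNA was blocked, so both mature arms are given here as the agent's target. They are RefSeq sequences on GRCm38.p6 chromosome 12, plus strand, from 109591729 to 109591750 and from 109591781 to 109591802, with the seed (bases 2 to 8) in capitals.
mmu-miR-433-5p: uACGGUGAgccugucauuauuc
mmu-miR-433-3p: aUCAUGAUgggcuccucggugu

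Of the 7 members tested, Cacna1g was the 1 whose groups did not overlap, against 17.1% of all genes tested. Its probe A_55_P2132756 is given for that reason. It lies on mm9 chromosome 11, minus strand, from 94270459 to 94270518, in the array design's coordinates. Its 60 bases read as 19 codons without a stop, followed by a stop codon, shown in capitals. Probe positions below are also mm9 design coordinates, and no mm9 exon or UTR annotation was used here.
A_55_P2132756: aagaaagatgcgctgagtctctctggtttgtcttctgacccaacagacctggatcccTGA

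All 6 arrays were on 1 slide and were read in 1 scan. Control arrays 1 and 2 lay in slide row 1, and control array 3 and all antagomir arrays in slide row 2. A difference between the groups is thus partly one between slide rows. Levels are given on the log2 scale after each array was divided by its 75th percentile over gene spots, which was 501 to 545 on control arrays and 423 to 454 on antagomir arrays. On this scale 65.2% of 22991 genes tested were higher with the antagomir, and the median log2 fold change of all genes was 0.11. It was −0.03 with quantile scaling and −0.36 with scaling by the median, so small differences below depend on the scale. Gene spots were called well above background in 57.7% to 58.5% of cases on control arrays and in 55.2%, 56.2% and 73.6% on antagomir arrays 1, 2 and 3. Heart muscle RNA was present throughout: all 7 cardiac myocyte markers were well above background on every array. Their number, 3 arrays per group, limits the precision, and a permutation test of 3 against 3 cannot give a two-sided p below 0.1.

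Over the conduction genes as a group, differences were small. Of the 7 tested, 6 were higher and 1 was lower with the antagomir, with a median log2 fold change of 0.24, a 1.18-fold difference. Over the 6 members well above background on all 6 arrays, which leaves out Cntn2, 5 were higher and the median was 0.21. With limma, 0 of the 7 passed an adjusted p of 0.05, against 0.00435% of all genes, which is 1 gene, Defa-ps1. Its levels on control arrays 1, 2 and 3 (−7.50, −7.22 and −7.33) were below the lowest called well above background there (−5.51, −5.18 and −5.41). Defa-ps1 thus passed the filter through the antagomir group, and its call is set against controls at background. At an unadjusted p under 0.05 there was 1 member, Cacna1g, against 7.18% of all genes. It was also the 1 member whose groups did not overlap, against 17.1% of all genes (10.8% with the antagomir above and 6.37% with it below). With scaling by the median 2 of 7 were higher, the group's median was −0.23 and 0 had an unadjusted p under 0.05. In that fit each member had the same SE (0.575), so its p-values do not measure each gene's own spread.

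**Figure D1:**
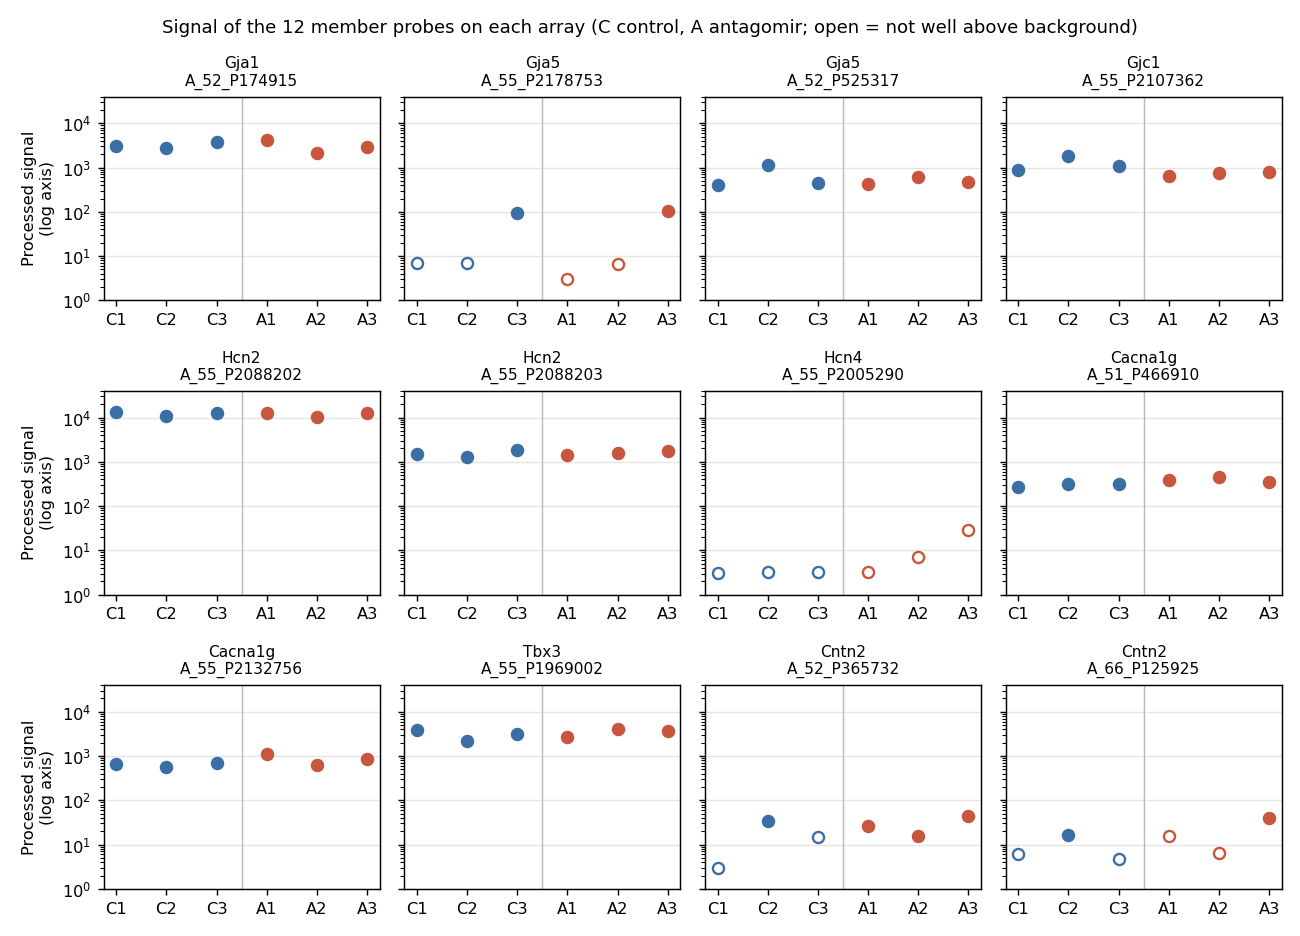
Processed signal (log axis) of each of the 12 probes of the 8 genes on control arrays C1 to C3 and antagomir arrays A1 to A3, 1 point per array, open where the spot was not well above background. The Hcn4 probe is open on all 6 arrays, both Cntn2 probes lie below 50, and the brightest points are those of the first Hcn2 probe, between 10505 and 13109.

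Gja1 encodes connexin 43. Its probe (mm9 chromosome 10, from 56109814 to 56109873) was printed in 10 spots per array. The averaged signals were 3065, 2781 and 3685 on control arrays 1, 2 and 3, and 4268, 2127 and 2925 on antagomir arrays 1, 2 and 3. The highest and the lowest of the 6 values were both antagomir arrays, so the groups overlapped completely. Mean levels were 2.59 ± 0.27 (SD, n = 3) against 2.77 ± 0.52, controls first, and the log2 fold change was 0.18 (SE 0.30, adjusted p = 0.821 by limma). Its 95% interval ran from a 0.678-fold to a 1.89-fold level. The sign turned without antagomir array 1 (−0.10).

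Gja5 encodes connexin 40, the connexin of atrial myocytes, of the His-Purkinje fibres and of arterial endothelium. Its tested probe (chromosome 3, from 96857349 to 96857408) had signals of 410, 1125 and 439 on control arrays 1, 2 and 3. They were 428, 610 and 475 on antagomir arrays 1, 2 and 3. Control array 2 was far above the other 5 arrays, and the groups overlapped. Mean levels were 0.17 ± 0.76 against 0.19 ± 0.26, and the log2 fold change was 0.02 (SE 0.40, adjusted p = 0.986 by limma), with a 95% interval from −0.96 to 1.00. Without control array 2 the value was 0.46, without control array 1 it was −0.24, and 6 of 18 other settings turned its sign. A second Gja5 probe, A_55_P2178753 (96836339 to 96836395), was well above background on control array 3 (signal 92.3) and antagomir array 3 (102) and nowhere else, with 3.08 to 7.15 on the other 4, and was not tested. The 2 probes lie at separate positions and ranked the arrays differently.

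Gjc1 encodes connexin 45, which is found in the nodes, in vascular smooth muscle and in the embryonic heart. It was the 1 member with a negative value. Its signals (probe on chromosome 11, from 102661010 to 102661069) were 866, 1780 and 1075 on control arrays 1, 2 and 3. They were 647, 739 and 804 on antagomir arrays 1, 2 and 3. Every antagomir signal was below every control signal, but on the scaled levels the groups overlapped, since control array 1 (0.73) lay between antagomir arrays 1 (0.61) and 2 (0.77). Mean levels were 1.18 ± 0.49 against 0.74 ± 0.11, and the log2 fold change was −0.44 (SE 0.27, adjusted p = 0.652 by limma). It was −0.18 without control array 2 and −0.67, with an unadjusted p under 0.05, without control array 1. It kept its sign in all 18 other settings, from −0.91 to −0.18.

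Of 7 markers of smooth muscle, 1 source of connexin 45, and of pericytes, 6 were lower with the antagomir. Their mean level relative to the control mean was −0.30 to 0.29 on control arrays and −0.69 to −0.25 on antagomir arrays. Log2 fold changes were −1.09 (SE 0.34) for the actin-binding Tagln, −1.27 (SE 0.44) for Cnn1 (calponin) and −0.31 (SE 0.22) for Acta2. All markers were detected, and their part in the Gjc1 value was not tested. In such bulk RNA, fewer cells of a type and less RNA per cell cannot be told apart.

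Cacna1g encodes Cav3.1, a T-type calcium channel of the nodes. Its signals on the probe printed above were 646, 553 and 704 on control arrays 1, 2 and 3. They were 1118, 622 and 837 on antagomir arrays 1, 2 and 3. Antagomir array 1 was the highest and antagomir array 2 lay inside the control range of signals, but on the scaled levels all antagomir arrays (1.40, 0.52 and 0.88) were above all control arrays (0.31, 0.02 and 0.49). The gap between the nearest values of the groups was thus small. Mean levels were 0.27 ± 0.24 against 0.94 ± 0.44, and the log2 fold change was 0.66 (SE 0.26, adjusted p = 0.652 by limma), a 1.58-fold difference with a 95% interval from 1.01 to 2.47. The exact permutation test of the difference gave a two-sided p = 0.1, the smallest that 3 against 3 can give.

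A second Cacna1g probe, A_51_P466910 (chromosome 11, from 94269863 to 94269922), had signals of 268, 319 and 312 on control arrays 1, 2 and 3. They were 383, 450 and 356 on antagomir arrays 1, 2 and 3. On it the groups did not overlap even before scaling, although antagomir array 2 and not 1 was the highest. In the fit over all tested probes its log2 fold change was 0.66 (SE 0.17, adjusted p = 0.690 by limma), and that of the first probe was 0.66 (SE 0.27). The unadjusted p of the gene stayed under 0.05 without antagomir array 2 but not without any other single array. The value was 0.54 without control array 2, 0.43 without antagomir array 1 and 0.87 without antagomir array 2. It was positive in all 18 other settings and had an unadjusted p under 0.05 in 10 of them, but was 0.19 with scaling by the median and 0.45 after blocking on slide row.

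Of the 7 cardiac myocyte markers, all had values above 0 (median log2 fold change 0.21) and 0 had an unadjusted p under 0.05, and the 3 named here turned sign with scaling by the median. The mean level of all 7 was −0.21 to 0.10 on control arrays and 0.16 to 0.29 on antagomir arrays. Tnni3 (troponin I) had a value of 0.37 (SE 0.17), Tcap of 0.26 (SE 0.15) and Tnnt2 of 0.21 (SE 0.14, −0.0093 with quantile scaling). Fibroblast markers were lower for 7 of 8, with mean levels of −0.26 to 0.33 on control arrays and −1.86 to −1.13 on antagomir arrays. The part of either in the Cacna1g value was not tested.

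Hcn2 encodes the HCN channel of working ventricular muscle, also found in the nodes. Its brighter probe, A_55_P2088202 (chromosome 10, from 79198412 to 79198471), gave 13109, 10846 and 12583 on control arrays 1, 2 and 3. It gave 12964, 10505 and 12713 on antagomir arrays 1, 2 and 3. The signals of the groups were nearly the same, and the positive difference arose on scaling. Mean levels were 4.54 ± 0.19 against 4.78 ± 0.17, and the log2 fold change was 0.24 (SE 0.17, adjusted p = 0.652 by limma), and −0.23 with scaling by the median. Its 95% interval ran from a 0.890-fold to a 1.57-fold level. The other Hcn2 probe (79198592 to 79198651), with signals from 1315 to 1809, had a value of 0.30 (SE 0.19). Hcn2 varied less than any other member tested, with a range of 0.62 over the 6 arrays.

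Hcn4 encodes the main pacemaker channel of the sinoatrial node. Its probe (chromosome 9, from 58708685 to 58708744) was not well above background on any array. The signals were 3.09, 3.18 and 3.29 on control arrays 1, 2 and 3, and 3.32, 7.25 and 29.3 on antagomir arrays 1, 2 and 3. No fold is given, since both groups were at background. The lowest signals called well above background lay between 11.4 and 20.0, depending on the array, so the value on antagomir array 3 passed that level without its spot being called.

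Tbx3 was bright in these hearts. Its signals (chromosome 5, from 120134511 to 120134570) were 3903, 2204 and 3222 on control arrays 1, 2 and 3. They were 2735, 4073 and 3773 on antagomir arrays 1, 2 and 3. Antagomir arrays 2 and 3 had the highest levels (3.23 and 3.06), and antagomir array 1 (2.69) lay inside the control range. Mean levels were 2.53 ± 0.46 against 2.99 ± 0.28, and the log2 fold change was 0.46 (SE 0.28, adjusted p = 0.652 by limma). It was 0.20 without control array 2 and −0.011 with scaling by the median.

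Cntn2 encodes contactin 2, an adhesion molecule also known as TAG-1 and made by neurons as well. It was close to background: the tested probe (chromosome 1, from 134406280 to 134406339) was well above background on 1 of 3 control arrays and 3 of 3 antagomir arrays. Its signals were 2.92, 34.9 and 14.7 on control arrays 1, 2 and 3. They were 26.8, 16.0 and 45.2 on antagomir arrays 1, 2 and 3. Control array 2 was the second highest of the 6, and the groups overlapped. The gene thus passed the filter through the antagomir group, and the fitted log2 fold change of 1.49 (SE 0.92, adjusted p = 0.652 by limma) is set against controls of which 2 of 3 were at background, so it is not a measured fold. It was 0.50 without control array 1 and 0.13 with normexp background correction and quantile scaling. The second Cntn2 probe, whose 60 bases are spread over 1269 positions of the genome (134413648 to 134414916), was above background on control array 2 (16.5) and antagomir array 3 (40.1), and was not tested. Of 9 Schwann cell and neuron markers tested, 4 were higher and 5 lower (median −0.16), with Uchl1 at −1.42 (SE 0.54) and Tubb3 at −1.69 (SE 0.71).

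**Figure D2:**
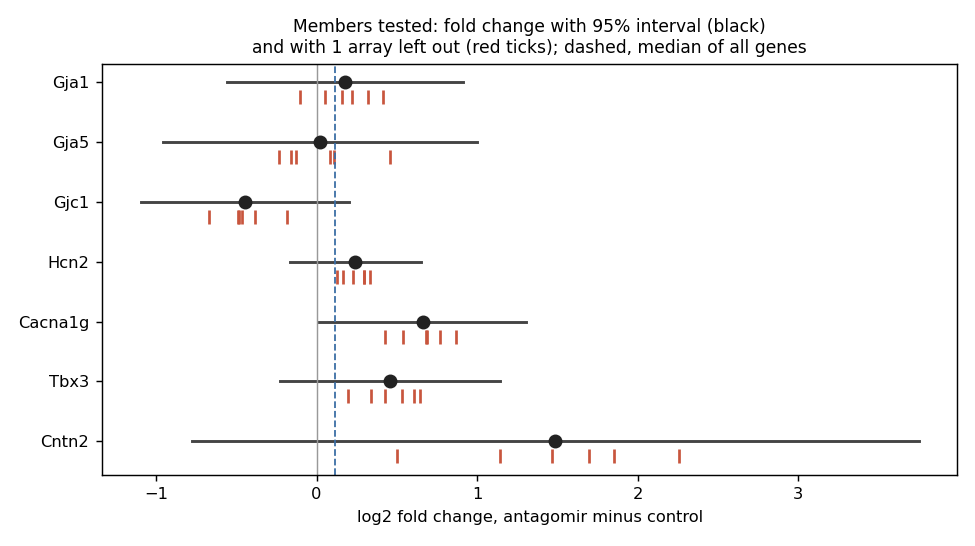
Log2 fold change (antagomir minus control) of the 7 members tested with its 95% interval in black, and the values with 1 array left out as red ticks. The interval of Cacna1g, 0.02 to 1.31, is the 1 that does not reach 0, the dashed line is the median of all genes (0.11), and the ticks of Gja1 and Gja5 fall on both sides of 0.

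The dim members need the state of antagomir array 3 beside them. Among the probes that were not above background on the other 5 arrays, 43.8% were well above background on antagomir array 3, and the share rose with the purine content (A and G) of the probe, from 8.62% under 45% purine to 90.5% at 65% or more. On control arrays, the same overall share was 2.01% to 3.37%. The second Gja5 probe is 66.7% purine, the Hcn4 probe 55%, and the Cntn2 probes 51.7% and 53.3%. In the bands that hold them, 90.5%, 59.7% and 42.6% of such probes were well above background on antagomir array 3. Of the probes just named, only that of Hcn4 was itself not above background on the other 5 arrays, and it was not called on antagomir array 3. The second Gja5 probe was also called on control array 3 (92.3, against 102 on antagomir array 3), and both Cntn2 probes on control array 2. The shares thus do not describe the Gja5 and Cntn2 probes. The highest signals of the Hcn4 probe, of both Cntn2 probes and of the second Gja5 probe were all on that array. Without it the Cntn2 value was 1.14. The brightest probes of the other 6 members, which stood for their genes, had signals of 410 or more in controls and are 30.0% to 55% purine. Without antagomir array 3 the 7 members had a median of 0.23 and 0 had an unadjusted p under 0.05, with Cacna1g at 0.69.

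**Figure D3:**
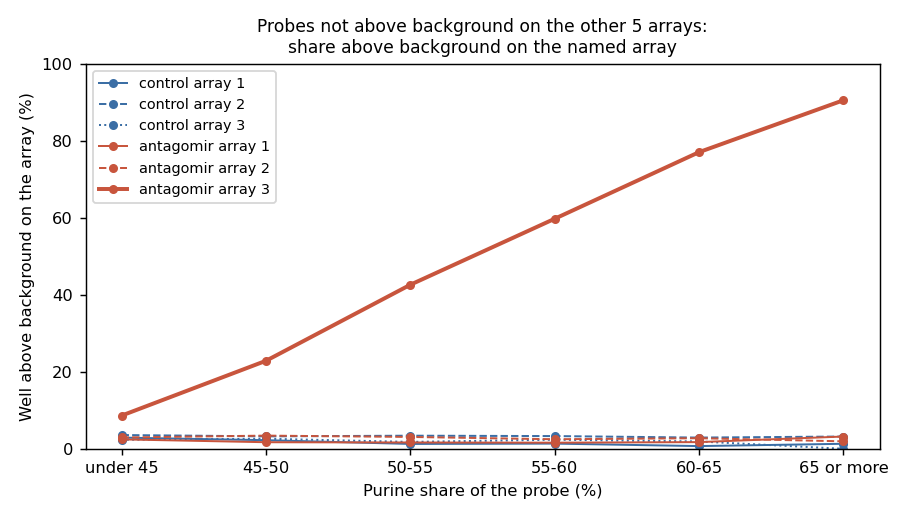
Share of probes well above background on the named array among those not above background on the other 5 arrays (vertical axis, percent), by the purine share of the probe (horizontal axis, percent). Antagomir array 3 climbs from 8.62% to 90.5% while the other 5 arrays stay under 4%.

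Some atrial genes differed widely between these hearts, and Gja5, Hcn4 and Tbx3 are genes of the atria or the nodes. Sarcolipin (Sln), a regulator of the atrial calcium pump, had signals of 27.3, 104 and 608 on control arrays 1, 2 and 3, and 131, 12445 and 39411 on antagomir arrays 1, 2 and 3. The atrial light chain Myl7 had 15.4, 14.7 and 461 on the controls, and 47.0, 4031 and 14938 with the antagomir. Antagomir arrays 2 and 3 were the highest for both genes, followed by control array 3. Other atrial markers had another order: Nppa, the atrial natriuretic peptide gene (log2 fold change −1.69, SE 1.00), and Dkk3 (−1.54, SE 1.12) were both highest on control array 2 and lowest on antagomir array 1. Of 9 atrial markers tested, 5 were higher and 4 lower, with a median log2 fold change of 0.002. Their mean level was −0.70 to 0.73 on control arrays and −0.75, 1.78 and 2.72 on antagomir arrays 1, 2 and 3. Sln and Myl7 (log2 fold change 5.17, SE 2.47) weigh heavily in this mean. Of the 10 listed, 1, Bmp10, was not tested. Stard10 had a log2 fold change of 1.29 (SE 0.43), Nr2f2, a transcription factor of the atria and of veins, of −0.40 (SE 0.13), and Sln of 5.32 (SE 2.31).

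Beside these, Gja5 levels were highest on control array 2 (1.05), followed by antagomir array 2 (0.49), and Tbx3 levels were highest on antagomir arrays 2 and 3 (3.23 and 3.06). The part of atrial tissue in these members' values was not tested. Of 8 ventricular myocyte markers 7 were higher (median 0.37), with the light chain Myl2 at 0.27 (SE 0.13), the potassium channel Kcnj2 at 0.60 (SE 0.29) and phospholamban (Pln) at 0.47 (SE 0.27). Their mean level was −0.28 to 0.28 on control arrays and 0.23 to 0.42 on antagomir arrays, a far narrower spread than that of the atrial markers. The value of Myl2 was −0.017 with normexp and quantile scaling.

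**Figure D4:**
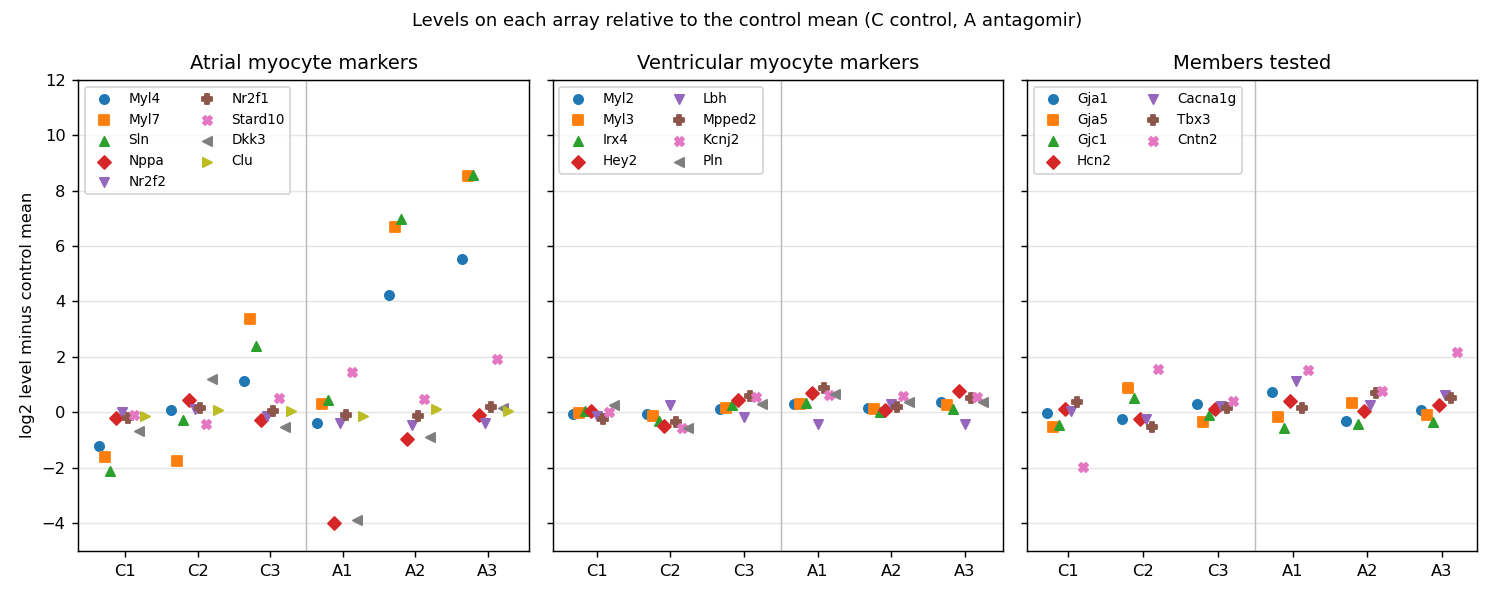
Log2 level minus the control mean for atrial myocyte markers (left), ventricular myocyte markers (middle) and the 7 members tested (right), 1 point per gene and array, with control arrays C1 to C3 and antagomir arrays A1 to A3. Sln and Myl7 reach more than 8 on A3, while the points of the members other than Cntn2 stay close to the control mean.

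Control array 2 stood apart for many members. Among the tested probes that stood for their genes, it had the highest Gja5 and Gjc1 levels of all 6 arrays and the lowest Tbx3 and Cacna1g levels. Its Hcn2 level (4.31) was the lowest too. The mean level of cardiac myocyte markers was also lowest there (−0.21), and that of fibroblast markers highest (0.33). Without control array 2 the median of the members was 0.20, and Cacna1g no longer had an unadjusted p under 0.05.

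Other genes of gap junctions were mostly too dim to test. Of 19 further connexins and pannexins, 7 were tested, of which 3 were higher and 4 lower (median −0.10). Unadjusted, 2 had p under 0.05, both lower, against 3.85% of all genes lower at that p, and 0 passed the adjusted threshold. Panx1, a large-pore channel for ATP release, had signals of 1196, 3036 and 1251 on control arrays 1, 2 and 3, and 253, 938 and 359 on antagomir arrays 1, 2 and 3. Every antagomir array was below every control array. Its log2 fold change was −1.65 (SE 0.58, adjusted p = 0.652 by limma), and its unadjusted p was not under 0.05 without control array 2 (−1.25), antagomir array 1 (−1.28) or antagomir array 3 (−1.48), nor after blocking on slide row (−1.31).

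Gja4, connexin 37 of arterial endothelium, had mean levels of 1.75 ± 0.30 against 1.25 ± 0.19 and a log2 fold change of −0.51 (SE 0.20, adjusted p = 0.652 by limma), and its groups overlapped. Gja10 had a value of 0.61 (SE 0.42), which was −0.40 with quantile scaling. It was close to background, with signals of 14.5 to 43.4, and was called well above it on 2 of 3 arrays in each group. Arterial endothelial markers, which include Gja4, were lower for 5 of 7 (median −0.22), with Unc5b, a netrin receptor, at −1.09 (SE 0.37) and the kinase Bmx at −0.31 (SE 0.27). Their mean level was −0.10 to 0.17 on control arrays and −0.55 to −0.09 on antagomir arrays. Endothelial markers in general were lower for 6 of 7 with a median of −0.05, among them Emcn (endomucin) at −0.56 (SE 0.24), the VEGF receptor Kdr at −0.20 (SE 0.14) and Tie1 at −0.10 (SE 0.17). The part of endothelium in the Gja4 value was not tested.

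All 16 intercalated disc genes, whose products join myocytes end to end around the gap junctions, were tested. Of these 12 were higher and 4 lower, with a median of 0.15, close to that of all genes, and a median of −0.32 with scaling by the median. At an unadjusted p under 0.05 there was 1, higher, against 3.33% of all genes higher. This was the desmosomal cadherin Dsc2, with levels of 0.89 ± 0.41 and 1.49 ± 0.13 (log2 fold change 0.60, SE 0.23, adjusted p = 0.652 by limma), or 0.38 without control array 2. Its partners Dsg2 (0.82, SE 0.41) and plakoglobin, Jup (0.30, SE 0.14), had higher p-values. Their groups overlapped for Dsg2 and did not for Jup.

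Further channels and regulators of the nodes were higher for 13 of 14 tested (median 0.35), and with scaling by the median for 5 of 14 (median −0.12). The median was 0.20 when control array 2 was left out and 0.15 after blocking on slide row. At an unadjusted p under 0.05 there was 1, higher, against 3.33% of all genes higher, and 0 passed the adjusted threshold. It was Cacna1h, the other T-type calcium channel of the heart, with signals of 141, 283 and 317 on control arrays 1, 2 and 3, and 361, 344 and 714 on antagomir arrays 1, 2 and 3. All antagomir arrays were above all control arrays. Its log2 fold change was 1.19 (SE 0.41, adjusted p = 0.652 by limma), 0.83 without control array 1, 0.72 with scaling by the median and 0.69 after blocking on slide row. The unadjusted p of Cacna1h was under 0.05 in 13 of 18 other settings. Settings where it was not under 0.05 included the 3 just named and that without antagomir array 3, which had the highest Cacna1h signal. Thus both T-type channel genes tested had values above 0, in every setting run. Cacna2d2, an auxiliary calcium channel subunit, had a value of 0.89 (SE 0.44), and Popdc2, a cAMP-binding membrane protein needed for normal pacing in mice, of 0.32 (SE 0.15).

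Nodal transcription factors and their inducers were lower for 5 of 7 (median −0.18), and Isl1 and Shox2, which specify the sinoatrial node, were not tested. Tbx18, also a marker of epicardium, had levels of −1.79 ± 0.35 and −2.55 ± 0.31 (log2 fold change −0.76, SE 0.25, adjusted p = 0.652 by limma). It was the 1 of 7 with an unadjusted p under 0.05, against 3.85% of all genes lower at that p, and it was not under 0.05 after blocking on slide row (−0.54). Bmp4, a growth factor upstream of T-box genes, had a value of −0.68 (SE 0.30) and Msx2 of 0.37 (SE 0.41, −0.099 without control array 2). The median was −0.01 without antagomir array 1, −0.10 without control array 2, −0.37 without control array 1 and −0.47 without antagomir array 3.

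Genes of the ventricular conduction system were higher for 11 of 14 tested (median 0.35, and −0.12 with scaling by the median). At an unadjusted p under 0.05 there were 2 higher, against 3.33% of all genes, and 1 lower, against 3.85%, and 0 passed the adjusted threshold. Pcp4, a calmodulin-binding peptide enriched in Purkinje fibres, had signals of 42.2, 105 and 210 on control arrays 1, 2 and 3, and 632, 279 and 389 on antagomir arrays 1, 2 and 3. All antagomir arrays were above all control arrays, and antagomir array 1 was the highest. Its log2 fold change was 2.33 (SE 0.64, adjusted p = 0.604 by limma), and 1.16 after blocking on slide row, where its unadjusted p was not under 0.05. Scn10a, a sodium channel gene whose locus is linked to conduction in humans, had signals of 63.2, 192 and 252 in controls and 502, 491 and 324 with the antagomir. Its groups did not overlap either, with a value of 1.83 (SE 0.55, adjusted p = 0.631 by limma), and 0.97 after blocking on slide row, where the same held. Nrg1, a growth factor that promotes a conduction fate in the embryonic mouse heart, had a value of −1.51 (SE 0.47, adjusted p = 0.645 by limma). The median of this list was 0.17 when control array 2 was left out, 0.57 without antagomir array 2 and 0.01 after blocking on slide row.

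**Figure D5:**
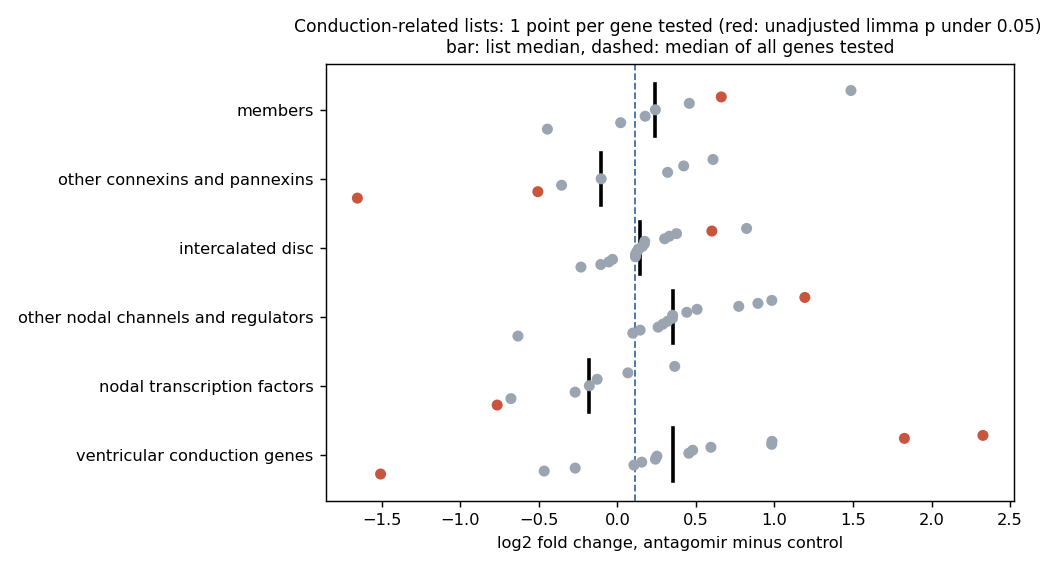
Log2 fold change (antagomir minus control, horizontal axis) of each gene tested in the members and in the 5 conduction-related lists, red where the unadjusted limma p was under 0.05. Bars mark list medians, from −0.18 for nodal transcription factors to 0.35 for ventricular conduction genes, and the dashed line marks the median of all genes, 0.11.

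For the 6 members whose level spanned more than 1 on the log2 scale, the genes with the most alike pattern over the 6 arrays were found by the root mean square difference of centred log2 levels. For Cacna1g these were Tcp11l2 (0.118) and Nrg4 (0.132), which also had antagomir array 1 highest and control array 2 lowest. For Gja5 they were Cgref1 (0.103) and B3galt1 (0.148), both highest on control array 2. For Gja1 they were Ntf3 (0.0829) and Mapk8 (0.0898), for Gjc1 Plxna4 (0.0818) and Ckap4 (0.0865), and for Tbx3 Cuzd1 (0.0723) and Abcd2 (0.0883). The nearest for Cntn2 were Atp6ap1l (0.551) and Adgra1 (0.558). Within 0.25 of Gja1 there were 1539 genes, of Gjc1 804, of Tbx3 694 and of Cacna1g 599. For Gja5 there were 25 and for Cntn2 0. Levels were centred but not scaled, so these differences and counts also depend on a member's range. The range was 1.04 for Gja1 and 4.15 for Cntn2. The counts thus do not measure how common a pattern is.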

How the data were processed

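The 3 control and 3 antagomir samples were hybridised to 1-colour Agilent arrays. The deposited intensities (processed signals, mean signals and local backgrounds) are output of Feature Extraction 10.7.1.1 with spatial detrending within the array, per the file headers. The other values used are flags of 0 or 1 per spot, per the file headers. The authors' deposited table holds raw intensities and normalised log2 values, and its method is not given in the sources used here.

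Control spots and outlier spots (154 to 233 per array) were left out. Spots were scaled by the 75th percentile over gene spots and averaged per probe on the log2 scale. Of 55681 probes, 20 without a usable spot on some array were dropped, and 31716 well above background on at least 3 of 6 arrays were tested. The brightest probe stood for its gene (22991 genes). Names came from RefSeq (GRCm38.p6, names only): 26582 probes by accession, 2602 by current symbol, 492 by synonym and 26005 as in the file. No spot was saturated (0 gene spots).

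The 2 groups were fitted in limma (version 3.58.1, R 4.3.3), two-sided, with Benjamini-Hochberg adjustment over all genes. Tables came from pandas 2.3.3 and figures from matplotlib 3.10.9, under Python 3.11.15. In 5 simulated runs of 22991 genes with 200 changed, 12.0% of genes changed 2-fold and 73.2% changed 4-fold were called, with 33 false calls in all. The simulated noise was normal, independent between genes and drawn at each gene's fitted spread. It held no effect of slide row and no shift of dim probes on 1 array, so these shares may not hold for the real arrays. Members, lists and settings were chosen with earlier results of these data known. Text names all members, the 3 genes with the smallest p in each of 14 lists (1 of them is not reported here), further markers of tissue content (Myl7, Bmp10, Nppa, Dkk3), Isl1 and Shox2, named after their values were seen, and the 2 genes most alike each member, without clone or predicted-gene names. Macrophage markers were lower for 5 of 6 (median −0.34): Cd14 had −0.44, Cd68 1.18 and Adgre1 −0.59. Cd68 was close to background, with signals of 33.9, 13.9 and 14.6 on control arrays 1, 2 and 3. They were 13.2, 34.2 and 105 on antagomir arrays 1, 2 and 3, so the value of Cd68 is not a measured fold. Of fibroblast markers, Col3a1 had −3.30, Col1a2 −2.15 and Col1a1 −2.80.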

Additional observations from a re-analysis of the deposited data

How the results depend on the processing

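The count of members with an unadjusted p under 0.05 (1) was 2 with array weights (Cacna1g and Cntn2), 0 with scaling by the median, with no filter and after blocking on slide row, and 0 to 1 with 1 array left out. With 1 array left out the member was not always Cacna1g. It was Gjc1 without control array 1, Cntn2, close to background, without control array 2, and Cacna1g without antagomir array 2. Genes past the adjusted threshold (1, Defa-ps1, with 1650 at an unadjusted p under 0.05) numbered 0 with normexp, with the strictest filter, after blocking on slide row and with the replicate block, 3 with the percentile over probes (chosen after seeing the data) and with a variance trend, 7 with array weights, 236 with scaling by the median, and 0 to 2 with 1 array left out. With scaling by the median each member had the same SE (0.575), so counts under it rest on a pooled spread. Genes with an unadjusted p under 0.05 numbered 299 after blocking on slide row, where control array 3 is the 1 control beside antagomir arrays, and 922 (without control array 2) to 2508 (without antagomir array 2) with 1 array left out. The members' median, 0.24, was −0.23 with scaling by the median and 0.13 to 0.35 in the other settings, 0.16 to 0.34 with 1 array left out. The cause of these shifts was not tested.

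Signs turned with scaling by the median for Gja1 (−0.29), Gja5 (−0.45), Hcn2 (−0.23), Tbx3 (−0.011), Jup (−0.17), Popdc2 (−0.15), Msx2 (−0.10), Myl2 (−0.20), Tnni3 (−0.099), Tcap (−0.21) and Tnnt2 (−0.25), and for the medians of the disc (−0.32), nodal channel (−0.12) and ventricular conduction (−0.12) lists. After blocking on slide row they turned for Gja1 (−0.11), Msx2 (−0.0039) and the disc median (−0.0049). Normexp turned Myl2 (−0.017) and Tnnt2 (−0.023), quantile scaling Gja10 (−0.40) and Tnnt2 (−0.0093), the authors' table Gja5 (−0.0071), Gja10 (−0.40) and Tnnt2 (−0.029), and the percentile over probes Gja5 (−0.00011). The other connexins' median was 0.61 with no filter and array weights gave 0.048. With 1 array left out it ran from −0.25 to 0.26, Gja1 from −0.10 to 0.42, Gja5 from −0.24 to 0.46, Msx2 from −0.099 to 0.65 and Tie1 from −0.19 to 0.042.

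Deviations from the group means of same-numbered arrays correlated at 0.22, 0.14 and −0.05 across genes. Those of a control and an antagomir array with unlike numbers correlated at −0.28 to 0.17. These weak correlations do not settle whether replicate numbers pair the samples. With the replicate block 2375 genes and 1 member, Cacna1g (0.66), had an unadjusted p under 0.05. The unadjusted p of Panx1, Gja4, Dsc2, Cacna1h, Tbx18, Scn10a and Nrg1 was above 0.05 with at least 1 array left out, and that of Pcp4 was under 0.05 without any single array. After blocking on slide row it was above 0.05 for all of these 8 genes except Nrg1. Signal over background limits what can be said of Hcn4, Cntn2 and the second Gja5 probe.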
